A study of Mus musculus with 6 samples.

Results

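Pericytes and smooth muscle cells are the mural cells of blood vessels: pericytes wrap capillaries, and smooth muscle cells form the wall of larger vessels. The account below concerns 10 genes that mark these cells, chosen by name with earlier results of these data known. For pericytes and related stroma they were the platelet-derived growth factor receptors Pdgfrb and Pdgfra, and Rgs5, Cspg4 and Des. For contractile cells they were Acta2, Tagln, Myh11, Cnn1 and Mylk. All probe sets that the array's annotation gives exactly 1 gene symbol from this list were taken, which gave 10 genes of 18193 and 23 probe sets of 34945 with 1 symbol. They were measured in RNA from isolated pancreatic islets of mice, which hold insulin-secreting beta cells, other endocrine cells, capillaries and stroma.

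The VhlhKO group had 3 arrays and the control group 3 arrays, each from 1 batch of islets. In VhlhKO mice a floxed Vhlh gene, whose product targets hypoxia-inducible factors for destruction, was deleted by Cre recombinase driven by the rat insulin promoter (RIP2-Cre), so the deletion was directed at beta cells and not at the mural cells discussed here. The labels carry this description of the model on the control samples too, and the sources used here do not say whether controls had the floxed alleles or the Cre transgene, nor how many mice made up a batch. In either genotype, array 1 is labelled male and 26 weeks old, array 2 female and 20 weeks, and array 3 male and 18 weeks. Each knockout array was therefore also set against the control array of the same number. The batches behind a p-value differ in recorded age and sex, and the spread it is set against includes that.

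The deleted gene, named Vhl in the annotation, read 344, 358 and 467 in VhlhKO and 457, 639 and 839 in control islets in its brighter probe set. In this probe set it was lower in VhlhKO in every pair, but VhlhKO array 3 lay above control array 1, so the groups overlapped, and the log2 difference of -0.70 had an adjusted p of 0.9998. The dimmer Vhl probe set, not tested, read 81.1, 35.4 and 42.1 in VhlhKO and 100.4, 122 and 28.1 in control islets, and was higher in VhlhKO in pair 3. The deletion was directed at beta cells, and whether other cells of the islets kept the gene was not measured. Where its probes lie relative to the deleted part was not analysed here. Each array had the same 2% trimmed mean, and array medians lay between 101.9 and 122.7.

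Endothelial cells recruit pericytes with PDGF-B, which binds the receptor encoded by Pdgfrb on the pericyte. Pericytes steady the capillary and tune its flow, and islets have a dense capillary bed that mural cells accompany. The contractile apparatus of smooth muscle is built from alpha actin (Acta2), smooth muscle myosin (Myh11) and the actin-binding proteins transgelin (Tagln) and calponin (Cnn1), and it is switched on by myosin light chain kinase (Mylk). Much of this programme is transcribed through CArG boxes, sites of serum response factor and its coactivator myocardin.

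No mural gene that could be tested passed the threshold between VhlhKO and control islets. Of the 10 genes 8 were bright enough to test, and 0 of the 8 had a limma adjusted p under 0.05, where 0.0172% of all 11609 genes tested did (2 genes, both higher in VhlhKO; 0.0517%, 6 genes, with the replicate number as a block). At an unadjusted p under 0.05 there was 1 of the 8, Pdgfrb, against a background of 2.58%, and with the block there were 2, Pdgfrb and Rgs5, against 5.03%. The differences leaned upward without passing: 7 of the 8 were positive, where 50% of all genes tested were. Their median log2 difference was 0.50, where that of all genes tested was -0.00028. The genes were chosen with earlier results of these data known and share the same 6 arrays, so the lean is no independent evidence. Pdgfra and Cnn1 were too dim to test. Bright enough meant a signal above the array's median on 3 or more of the 6 arrays, and 0 of the 8 reached this through the arrays of 1 group alone. In whole islets, a change in the number of cells of a type and a change in RNA per cell cannot be told apart.

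Start-site windows of 300 bases, from RefSeq on build GRCm38.p6, were at hand for 7 of the 10 genes. Those of Rgs5, the gene whose genotypes did not overlap, and of Acta2, the actin of the contractile programme, are shown to set their elements side by side, with matches in capitals. The window of Rgs5 lies at chr1:169655251-169655550 on the + strand and that of Acta2 at chr19:34255324-34255623 on the - strand, each running from 250 bases before the annotated start to 50 after it.
Rgs5: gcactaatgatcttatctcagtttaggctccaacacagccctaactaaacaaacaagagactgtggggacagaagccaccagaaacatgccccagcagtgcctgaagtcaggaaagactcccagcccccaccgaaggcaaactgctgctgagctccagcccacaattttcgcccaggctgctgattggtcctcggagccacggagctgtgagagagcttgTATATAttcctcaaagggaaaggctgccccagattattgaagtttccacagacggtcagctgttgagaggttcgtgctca
Acta2: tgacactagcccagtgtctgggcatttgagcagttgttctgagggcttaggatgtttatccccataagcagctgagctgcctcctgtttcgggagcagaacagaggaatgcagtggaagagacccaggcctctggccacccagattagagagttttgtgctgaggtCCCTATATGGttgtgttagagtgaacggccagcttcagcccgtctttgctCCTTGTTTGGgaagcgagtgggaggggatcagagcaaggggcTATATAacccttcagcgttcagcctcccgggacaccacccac

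Both strands of each window were searched for TATATA, for the core letters of the hypoxia response element (ACGTG and GCGTG), for the CArG box and for a CArG-like box with 1 C or G in its A/T core. The Acta2 window held 2 CArG-like boxes, CCCTATATGG and CCTTGTTTGG, and the Rgs5 window 0. None of the other 5 windows, those of Pdgfra, Des, Cspg4, Cnn1 and Mylk, held a CArG-like box. A full CArG box was found in none of the 7 windows. Of 32851 windows of this length 8.5% held a CArG-like box and 1.63% a full CArG box. The windows of Rgs5 and Acta2 each held 1 TATATA, found in 5.67% of all windows. Its first base lay at -30 from the annotated start in Rgs5 and at 8, past that start, in Acta2. Neither window held ACGTG or GCGTG, which 19.6% and 32.4% of all windows held. Among the other 5 windows, ACGTG was found in those of Cnn1 and Mylk, GCGTG in those of Cnn1 and Cspg4, and neither in those of Pdgfra and Des. A match is a string of letters, not a shown binding site, and a window without one says nothing of sites elsewhere. No match in the shown windows overlapped another.

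**Figure D1:**
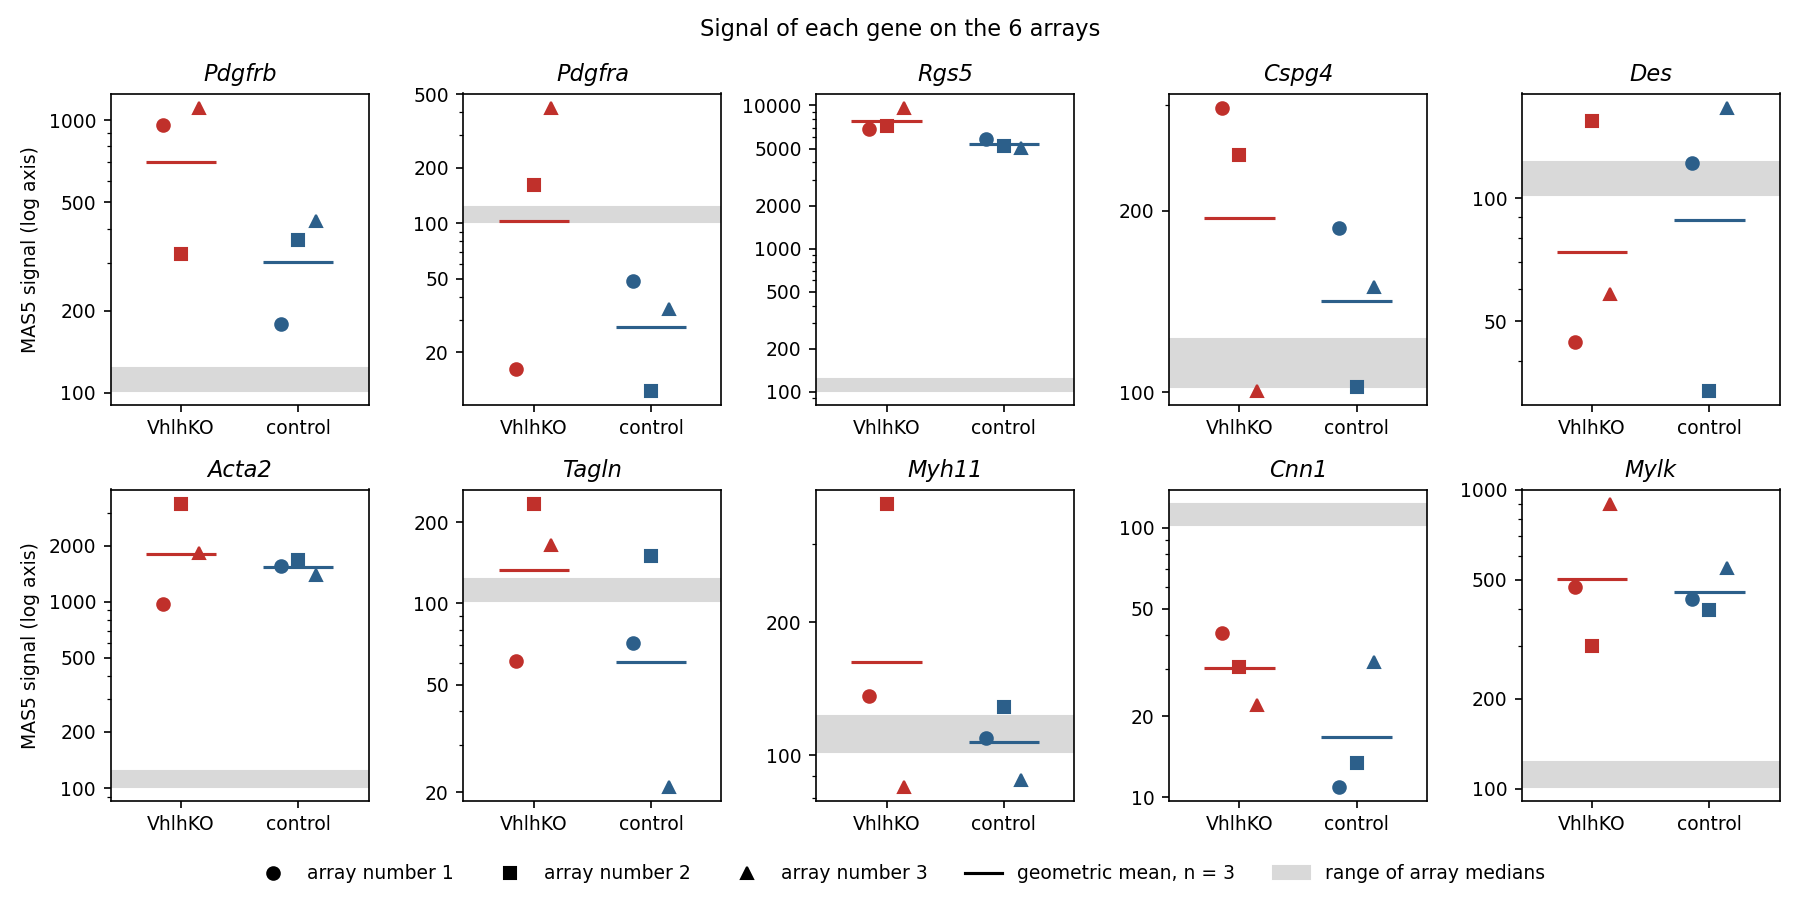
MAS5 signal on a log axis, with a scale of its own in each panel, of the probe set that stands for each gene on the 3 VhlhKO and 3 control arrays. Symbols give the array number, lines the geometric mean and the grey band the range of array medians. Rgs5 is the 1 gene of the 10 whose VhlhKO points all lie above its control points, and Acta2, Tagln and Myh11 are highest on VhlhKO array 2.

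Pdgfrb, the receptor by which pericytes are recruited, had the lowest p of the 8 tested genes. Its probe set 1436970_a_at had signals of 961, 322 and 1110 on VhlhKO arrays 1, 2 and 3, against 178, 363 and 426 on control arrays 1, 2 and 3. VhlhKO arrays 1 and 3 lay above every control array and VhlhKO array 2 lay among them, so the groups overlapped. The mean log2 signal was 9.45 ± 0.98 in VhlhKO and 8.24 ± 0.67 in control islets (SD, n = 3 each), a 2.32-fold higher level in VhlhKO. The log2 difference was 1.22 (SE 0.52), its 95% interval before adjustment ran from 0.05 to 2.38, and the adjusted p was 0.9998. By pair it was 2.43, -0.17 and 1.38 for numbers 1, 2 and 3, and it ranged from 0.83 to 1.78 when 1 array was left out. A second, dimmer probe set had signals of 120, 16.5 and 91.1 in VhlhKO and 25.9, 14.4 and 37.1 in control islets. Its VhlhKO arrays 1 and 3 likewise lay above every control array, and its log2 difference was 1.24 with a two-sided exact permutation p of 0.3, where 0.1 is the smallest that 6 arrays allow.

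Pdgfra, the related receptor that marks fibroblasts and other mesenchymal cells, was too dim to test. Probe set 1421917_at, which stands for it, read 16.3, 161 and 423 in VhlhKO and 48.4, 12.4 and 34.1 in control islets. VhlhKO arrays 2 and 3 were above the array median, and VhlhKO array 1 and all 3 control arrays were below it. Its log2 difference was 1.92, set against dim control values, at -1.57, 3.70 and 3.63 by pair, with a permutation p of 0.3 (exact, two-sided). The other Pdgfra probe sets stayed below the array median on every array. One read 44.2, 69.1 and 60.9 in VhlhKO and 32.2, 64.1 and 39.5 in control islets, a log2 difference of 0.40. The other read 15.8, 16.9 and 36.9 in VhlhKO and 6.40, 38.2 and 56.9 in control islets, a log2 difference of -0.17, so the 3 probe sets did not share a direction.

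Rgs5, a regulator of G-protein signalling used as a pericyte marker, was the 1 tested gene of the 8 whose groups did not overlap, where 3.98% of all genes tested were without overlap and higher in VhlhKO. Its probe set 1417466_at had signals of 6815, 7150 and 9660 on VhlhKO arrays, against 5793, 5195 and 5084 on control arrays. The lowest VhlhKO array lay above the highest control array. The mean log2 signal was 12.93 ± 0.27 in VhlhKO and 12.38 ± 0.10 in control islets (SD, n = 3 each), a 1.45-fold higher level in VhlhKO. The log2 difference was 0.54 (SE 0.24), its interval ran from -0.01 to 1.09, and the adjusted p was 0.9998. The exact permutation p was 0.1, the smallest that the design allows. It was higher in VhlhKO in 3 of 3 pairs, by 0.23, 0.46 and 0.93, as was the case for 13.7% of all genes tested and for no other of the 8. Without VhlhKO array 3 the difference was 0.38.

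The other Rgs5 probe sets overlapped between genotypes. All 4 had a positive log2 difference, at 0.54, 0.35, 0.29 and 0.36. The _x_at set, whose probes may also pick up similar transcripts, read 141, 191 and 178 in VhlhKO and 146, 139 and 115 in control islets. The _s_at set read 156, 317 and 571 in VhlhKO and 250, 305 and 174 in control islets, so that VhlhKO array 1 was its lowest array. The fourth read 830, 706 and 1119 in VhlhKO and 608, 596 and 1000 in control islets. With the mean over its probe sets the Rgs5 difference was 0.38.

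Cspg4 encodes the NG2 proteoglycan on the surface of pericytes and glial progenitors. Its brighter probe set, 1450944_at, read 297, 247 and 101 in VhlhKO and 187, 102 and 150 in control islets, a log2 difference of 0.46 (SE 0.50, adjusted p 0.9998). VhlhKO array 1 was the highest and VhlhKO array 3 the lowest of the 6. By pair it was 0.66, 1.28 and -0.57. In the second probe set VhlhKO array 3 was the highest and VhlhKO array 2 the lowest, at 132, 16.6 and 175, against 136, 35.2 and 49.1 in control islets, with a log2 difference of 0.23.

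Des encodes desmin, an intermediate filament of muscle and of some pericytes. The signals of probe set 1426732_at straddled the array median, at 44.6, 155 and 58.4 in VhlhKO and 122, 33.8 and 167 in control islets. It was the 1 tested gene of the 8 with a negative log2 difference, -0.26 (SE 0.80, adjusted p 0.9998). The sign was not stable, at 0.11 without VhlhKO array 1 and 0.20 without control array 3. By pair it was -1.45, 2.19 and -1.52. The second Des probe set, too dim to test, read 56.0, 31.2 and 107 in VhlhKO and 114, 64.1 and 52.4 in control islets, a log2 difference of -0.35 with a two-sided exact permutation p of 0.5.

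Acta2 encodes smooth muscle alpha actin, also made by activated stellate cells and myofibroblasts. Its probe set 1416454_s_at, of a kind that can match more than 1 transcript, had signals of 973, 3357 and 1821 in VhlhKO and 1553, 1665 and 1386 in control islets. VhlhKO array 2 was the highest and VhlhKO array 1 the lowest of the 6, with the control arrays close together between them. The mean log2 signal was 10.82 ± 0.89 in VhlhKO and 10.58 ± 0.13 in control islets (SD, n = 3 each). The log2 difference was 0.24 (SE 0.42, adjusted p 0.9998) with an interval from -0.70 to 1.19, and without VhlhKO array 2 it was -0.20. The other Acta2 probe sets lay below the array median on all 6 arrays and differed by -0.05 and -0.16. The first read 11.4, 66.0 and 10.1 in VhlhKO and 6.99, 31.9 and 37.8 in control islets, and the second 29.5, 47.8 and 3.01 in VhlhKO and 80.2, 27.0 and 2.71 in control islets.

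Tagln and Myh11 were also highest on VhlhKO array 2. Tagln, the actin-binding protein transgelin or SM22, measured by 1423505_at, read 61.3, 234 and 165 in VhlhKO and 71.3, 149 and 21.0 in control islets. Its log2 difference was 1.13 (SE 0.83, adjusted p 0.9998), and it was 0.37 without control array 3, the lowest of the 6. Myh11, the smooth muscle myosin heavy chain, measured by 1448962_at, read 137, 371 and 85.0 in VhlhKO and 109, 129 and 88.0 in control islets. Its log2 difference was 0.60 (SE 0.58, adjusted p 0.9998), and it was 0.005 without VhlhKO array 2. A dim second Myh11 probe set was also highest on that array, at 18.4, 55.6 and 8.39 in VhlhKO and 12.7, 14.0 and 8.31 in control islets.

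Cnn1 encodes calponin, which binds actin and slows the myosin motor. Its single probe set, 1417917_at, was below the array median on all 6 arrays, at 40.8, 30.5 and 22.1 in VhlhKO and 11.0, 13.4 and 31.8 in control islets. Its log2 difference of 0.85 was not tested in the fit and had a permutation p of 0.3 (exact, two-sided). By pair it was 1.89, 1.18 and -0.53.

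Mylk, the kinase that starts contraction and is also made in other cell types, was measured by 1425506_at, which read 474, 301 and 899 in VhlhKO and 432, 396 and 550 in control islets. VhlhKO arrays 3 and 2 were its highest and lowest, the log2 difference was 0.15 (SE 0.40, adjusted p 0.9998), and it was -0.27 without VhlhKO array 3. Its second bright probe set read 99.4, 130 and 148 in VhlhKO and 96.7, 138 and 131 in control islets, a log2 difference of 0.04. The third, below the array median on all 6 arrays, read 111, 5.61 and 30.9 in VhlhKO and 22.7, 8.37 and 99.4 in control islets, a log2 difference of 0.01.

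**Figure D2:**
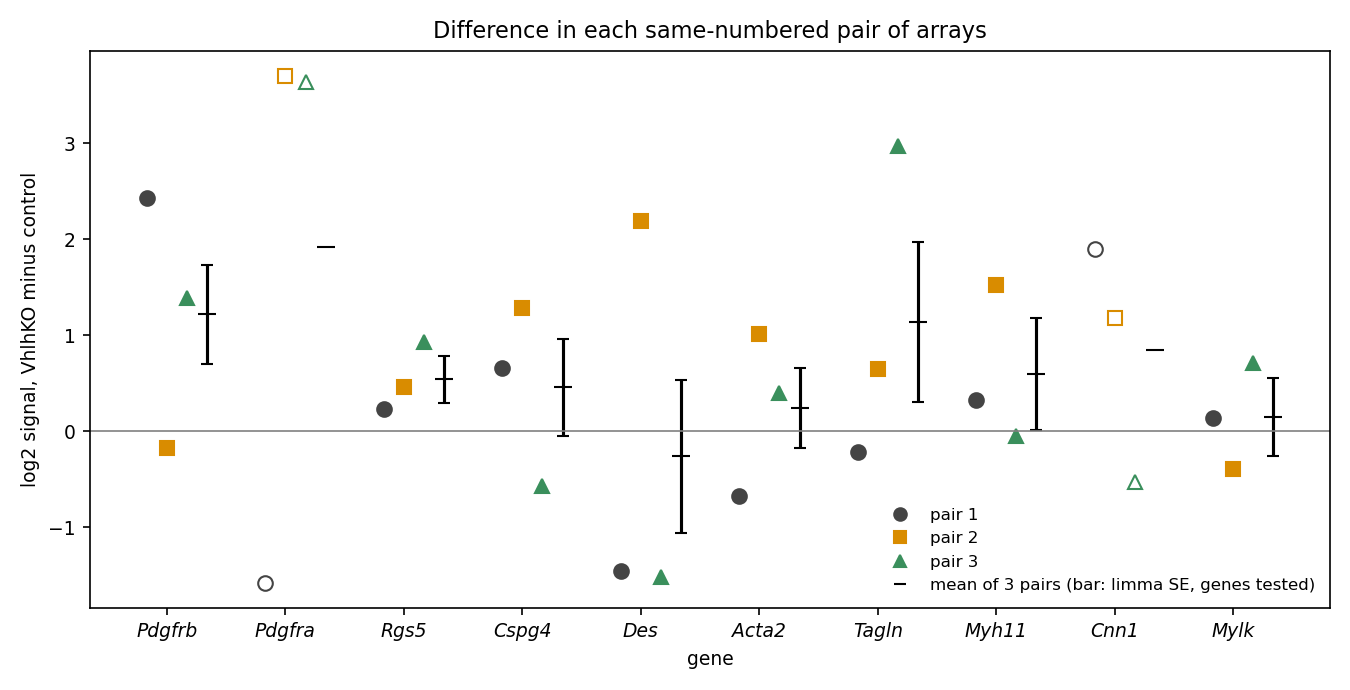
Log2 signal of VhlhKO minus control in each same-numbered pair of arrays, for the probe set that stands for each gene, with filled symbols for genes tested and open ones for Pdgfra and Cnn1. Short lines are the mean of the 3 pairs with limma's standard error from the fit without the replicate block. Rgs5 is the 1 gene with all 3 pairs above 0, and Pdgfrb is at 2.43, -0.17 and 1.38 in pairs 1, 2 and 3.

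The genes thus did not share 1 order of arrays. Among the 8 tested, Acta2, Tagln and Myh11 were highest on VhlhKO array 2, as were 17% of all genes tested. Of their 6 probe sets 5 were highest there, but the 3 that stand for the genes were grouped by that peak. The others lay below the array median on all 6 arrays, so this count is no separate finding. Pdgfrb, Rgs5 and Mylk were highest on VhlhKO array 3, as were 18.6% of all genes tested. Cspg4 was highest on VhlhKO array 1, as were 20.6%, and Des on control array 3. Together 7 of the 8 peaked on a VhlhKO array, against 56.3% of all genes tested. The log2 signal spread more among VhlhKO than among control arrays for 6 of the 8, as for 57.5% of all genes tested, and Acta2 had an SD of 0.89 in VhlhKO against 0.13 in control islets. By pair the median log2 difference over the 8 genes was 0.18, 0.83 and 0.55. In Pdgfrb, Des and Mylk, 3 of the 8, pair 2 had the opposite sign to pairs 1 and 3, as in 20.6% of all genes tested.

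Tested 1 by 1, 13 of the 23 probe sets were bright enough, and 0 of the 13 passed over the 19853 probe sets tested, where 0.0201% did. At an unadjusted p under 0.05 there was 1 of the 13, where 2.21% of all probe sets were, and 1 of the 13, that of Rgs5, was without overlap and higher in VhlhKO, where 3.44% were. Of the 13, 12 had a positive log2 difference, against 48.1% of all probe sets tested. Probe sets of 1 gene share a transcript and are not independent. Of 8 genes with more than 1 probe set, 6 had all of them on 1 side of 0, and Pdgfra and Acta2 did not.

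**Figure D3:**
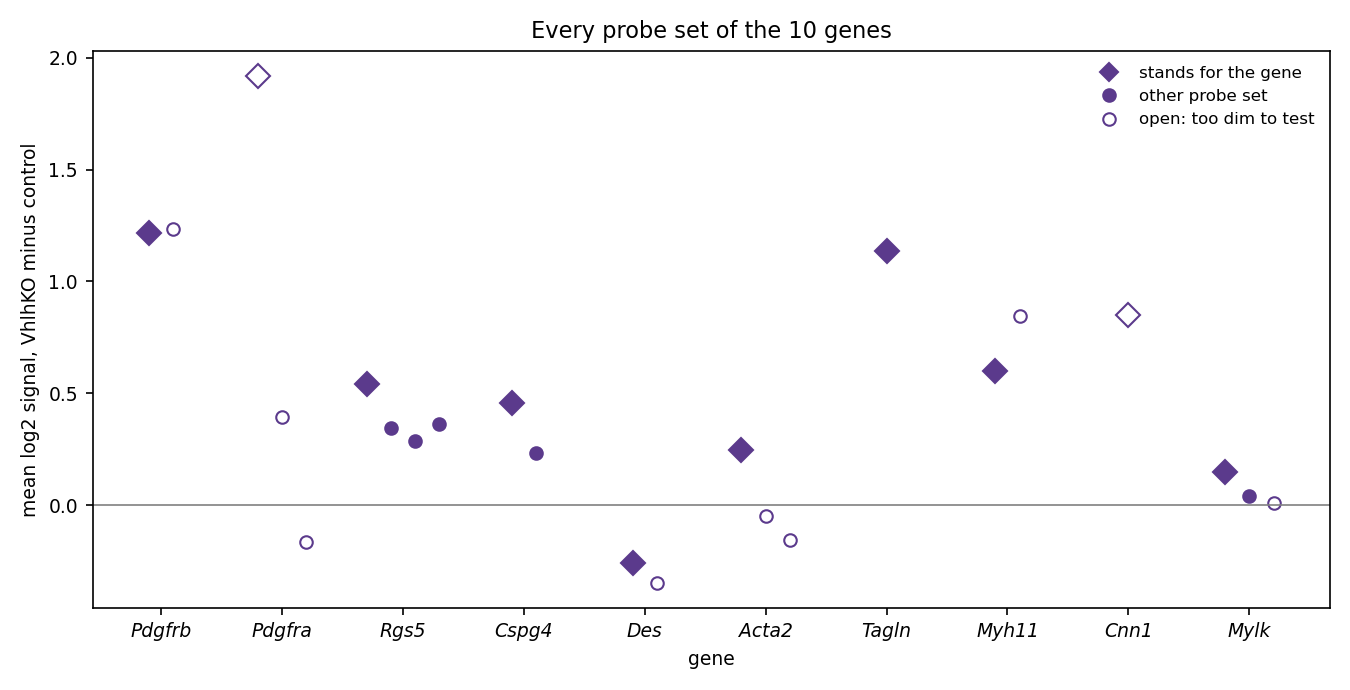
Mean log2 signal of VhlhKO minus control for all 23 probe sets of the 10 genes, with diamonds for the probe set that stands for a gene and open symbols for those too dim to test. The 4 Rgs5 probe sets lie between 0.29 and 0.54, and the tested Des probe set is the 1 filled symbol below 0.

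The PDGF ligands are the signals of the receptors above. All 4 were tested and 0 passed. Pdgfb, the ligand that endothelium uses to recruit pericytes, read 247, 203 and 214 in VhlhKO and 228, 111 and 108 in control islets, a log2 difference of 0.66 (SE 0.42). Control array 1 lay among the VhlhKO arrays, and the VhlhKO array exceeded the control array in each pair. Pdgfd, which also acts on the Pdgfrb product, differed by 0.68 (SE 0.55), Pdgfc, a ligand of the Pdgfra product, by 0.45 (SE 0.47) and Pdgfa, the main ligand of that receptor, by 0.04 (SE 0.35), each with an adjusted p of 0.9998. The VhlhKO array was the higher one in all 3 pairs for 3 of the 4 ligands, all but Pdgfa, as for 13.7% of all genes tested. In pair 1 the log2 difference was small, at 0.11 for Pdgfb, 0.03 for Pdgfc and 0.009 for Pdgfd.

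Of 23 other pericyte genes listed, 19 had a probe set and 12 were tested. None passed, and 1 of the 12 had an unadjusted p under 0.05, where 2.58% of all genes tested did. Of the 12, 10 were positive, where 50% of all genes tested were, and the same shares stand beside the lists below. The median log2 difference of the 12 was 0.57. By pair that median was -0.26, 0.14 and 1.17, so it was below 0 in pair 1 and highest in pair 3. Notch3, the Notch receptor of mural cells, had the lowest p, with signals of 608, 391 and 838 in VhlhKO and 195, 263 and 453 in control islets. Its groups overlapped, and it was higher in VhlhKO in every pair, by 1.64, 0.57 and 0.89 (mean 1.03, SE 0.41, adjusted p 0.9998). Heyl, a Notch target in mural cells, differed by 0.87 (SE 0.55) and Rgs4, a relative of Rgs5, by 0.87 (SE 0.52), each with an adjusted p of 0.9998. Cox4i2, a subunit of cytochrome oxidase that is abundant in pericytes and known as induced by low oxygen, lay the other way without overlap, as 2.77% of all genes tested did. It read 15.7, 105 and 75.7 in VhlhKO and 127, 166 and 150 in control islets, a log2 difference of -1.55 (SE 0.76, adjusted p 0.9998) and it reached the test through its control arrays alone, since all 3 VhlhKO signals lay below the array medians.

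Of 20 other smooth muscle genes, all with a probe set, 12 were tested, 0 passed, 0 had an unadjusted p under 0.05 and 9 were positive. Their median log2 difference was 0.28, and by pair it was -0.15, 0.25 and 0.43. The lowest p belonged to Synpo2, an actin-binding protein of the Z-disc (0.96, SE 0.55), Flna, the actin crosslinker filamin A (1.04, SE 0.89), Myl9, the regulatory light chain of smooth muscle myosin (0.48, SE 0.44), and Itga8, an integrin of mesenchymal cells (0.64, SE 0.68). The adjusted p of each was 0.9998. Myl9, whose product Mylk phosphorylates, was highest on VhlhKO array 2, as Acta2 was. It read 169, 430 and 371 in VhlhKO and 206, 305 and 160 in control islets. Of the 12 tested, 3 were highest on VhlhKO array 2 and 7 on VhlhKO array 3, against 17% and 18.6% of all genes tested. The genes Actg2, Lmod1, Ppp1r14a, Kcnmb1 and Pln lay below the array median on all 6 arrays.

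Genes that control the contractile programme included 13 tested of 18 listed, of which 0 passed. Of the 13, 1 had an unadjusted p under 0.05, against 2.58% of all genes tested, and 10 were positive, against 50%. Their median log2 difference was 0.28. Mef2c, a transcription factor of muscle and endothelium, had the lowest p and no overlap (as 3.98% of all genes tested, higher in VhlhKO), at 1514, 1403 and 2207 in VhlhKO against 1102, 1049 and 982 in control islets (log2 difference 0.68, SE 0.28, adjusted p 0.9998). Smad3, which carries the signal of transforming growth factor beta, differed by 0.68 (SE 0.33), Klf4, a repressor of contractile genes in smooth muscle, by 1.03 (SE 0.54) and Tgfb2 by 0.90 (SE 0.54), each with an adjusted p of 0.9998. Srf, the factor that binds CArG boxes, differed by 0.29. Myocd, its coactivator, was below the array median on all 6 arrays.

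Signals exchanged between endothelium and mural cells comprised 11 genes, of which 8 were tested, 0 passed and 5 were positive, with a median log2 difference of 0.31. The groups did not overlap for 3 of the 8, all higher in VhlhKO, where 3.98% of all genes tested were. S1pr3, a sphingosine phosphate receptor, read 502, 463 and 680 in VhlhKO and 245, 403 and 222 in control islets (0.95, SE 0.33), and the Notch ligand Jag1 (0.75, SE 0.36) and the growth factor Hbegf (0.51, SE 0.28) were the others. Tek, the angiopoietin receptor of endothelium, differed by 0.74 (SE 0.43), and all 4 of these genes had an adjusted p of 0.9998. Of the R4 family of RGS genes, the relatives of Rgs5, 5 were tested of 9 listed, and 0 passed. The 5 log2 differences were positive, between 0.01 and 0.87. The highest was that of Rgs4, which is counted among the other pericyte genes too. Rgs2 was at 0.35 (SE 0.31), Rgs1 at 0.27 (SE 0.82) and Rgs16 at 0.02 (SE 0.32).

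The genes of most similar pattern were sought among the 11601 other genes tested, by the root mean square distance between log2 signals centred on each gene's mean over the 6 arrays. Nearest to Pdgfrb were Tlcd3b, at 0.31, Gprc5b, at 0.31, and Thbd, the endothelial thrombomodulin gene, at 0.34, where Pdgfrb itself varied by 0.91 about its mean. Thbd read 1213, 789 and 2257 in VhlhKO and 441, 885 and 915 in control islets. Like Pdgfrb, Thbd and Gprc5b were lowest on control array 1 and highest on VhlhKO array 3. Tlcd3b was also lowest on control array 1 but highest on VhlhKO array 1, at 390 against 326 on VhlhKO array 3. Nearest to Acta2 were Slc10a6, at 0.08, Lrig1, at 0.10, and Ifi27, at 0.13, where Acta2 varied by 0.54. Each of the 3 was highest on VhlhKO array 2 and lowest on VhlhKO array 1, and Lrig1 read 301, 903 and 497 in VhlhKO and 440, 540 and 426 in control islets. All were chosen by nearness over the same 6 arrays, so a shared order of arrays is no separate finding.

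Markers of other cells in the preparations differed between arrays too. All 12 fibroblast and matrix markers were tested and positive, with a median log2 difference of 1.22, and 11 of the 12 were highest on VhlhKO array 3, the array on which Pdgfrb, Rgs5 and Mylk were highest. Their summed signal was 6884, 9556 and 25718 in VhlhKO and 3859, 7719 and 4628 in control islets. All 10 endothelial markers were positive, with a median of 0.52 and a summed signal of 15450, 11437 and 15389 in VhlhKO and 9348, 8824 and 9861 in control islets. Of the Schwann and neural markers 4 of 5 tested were positive, with a median of 0.91 and a summed signal from 1124 to 2547 in VhlhKO and from 607 to 1295 in control islets. No marker of these 3 lists was below the array median on all arrays, 0 members of any passed, and their part in the values of the mural genes was not tested.

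All 8 acinar markers tested were negative in the mean, with a median of -1.08, yet all 8 were highest on VhlhKO array 2, the array on which Acta2, Tagln and Myh11 were highest. Their summed signal was 339558, 435768 and 8362 in VhlhKO and 310733, 350576 and 79270 in control islets, and their part in the contractile genes' values was not tested. Striated muscle markers, which share contractile genes with smooth muscle, were all too dim to test, with a summed signal from 256 to 403 in VhlhKO and from 346 to 660 in control islets over 9 genes, and 5 of the 9 were below the array median on every array. Mesothelial markers had 2 tested of 5, both negative, with a summed signal from 116 to 853 in VhlhKO and from 392 to 498 in control islets. Duct markers had 3 tested with 2 positive, of which Sox9 reached the test through its VhlhKO arrays alone (summed signal from 2536 to 5414 in VhlhKO and from 2711 to 6344 in control islets), leukocyte markers 3 with 3 positive (2449 to 5227 in VhlhKO and 2173 to 5005 in control islets) and beta cell markers 6 with 3 positive (57445 to 118286 in VhlhKO and 76161 to 102757 in control islets). No listed gene had a signal of 0 on any array.

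**Figure D4:**
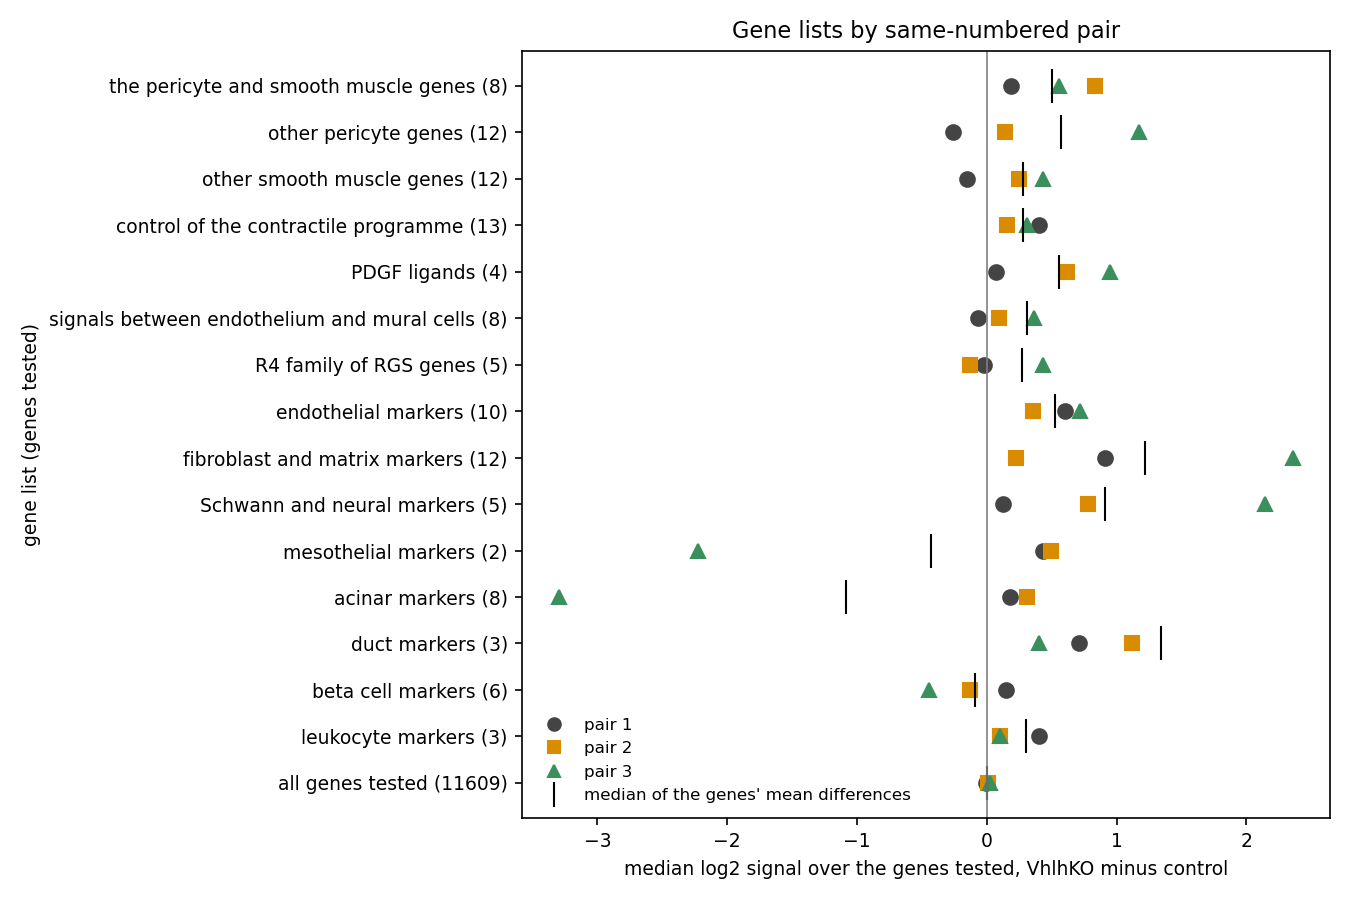
Median log2 signal of VhlhKO minus control over the tested genes of each list, by same-numbered pair of arrays, with the number of genes tested in brackets and a vertical line at the median of the genes' mean differences. The median over all genes tested lies near 0 in each pair. Pair 3 holds the highest value for the fibroblast and matrix list, 2.36, and the lowest for the acinar list, -3.30.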

How the data were processed

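The authors deposited 1 linear intensity for each probe set and sample, the MAS5 signal of an Affymetrix array. The submitters' processing notes name GCOS 1.4 and MAS5. Per the labels' protocols, RNA was amplified in 2 cycles before labelling. No detection calls were used here. Precision is limited by there being 3 arrays a group.

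Of 45101 probe sets 64 controls were left out, and 34945 had 1 symbol in the platform annotation, 932 several and 9160 none. A gene's brightest probe set by mean log2 signal, those ending in _x_at aside, stood for it, and it was tested if above the array median on at least 3 of 6 arrays. Log2 signals, with nothing added, were compared with limma 3.58.1 in R 4.3.3 (intensity trend, two-sided, Benjamini-Hochberg over all genes tested, threshold 0.05). Every adjusted p is from limma. The script was tested on simulated data. Promoter motifs were searched on both strands.

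The members and the 15 context and marker lists were chosen with earlier results of these data known. All members were named, with the up to 4 genes of lowest p per context list, all PDGF ligands and the 3 nearest patterns to Pdgfrb and to Acta2. Srf, Myocd and the dim smooth muscle genes were named after their values were seen. Deviations from group means correlated at 0.15, 0.42 and 0.43 within pairs numbered 1, 2 and 3, all above 0.1, so the numbers were taken to pair the samples. Knockout 2 and control 1, of unlike numbers, correlated at 0.14. The standard errors, intervals and adjusted p given for each gene are nevertheless from the fit without the replicate block. With the block the 95% interval before adjustment ran from 0.05 to 1.04 for Rgs5 (limma adjusted p 0.95). For Pdgfrb it ran from 0.15 to 2.28 (limma adjusted p 0.92). Alternatives were the pseudocount, normalization, filter, choice of probe set, replicate block, array weights, trend and leaving out arrays.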

Additional observations from a re-analysis of the deposited data

Results flagged for a closer look

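In 3 of the tested genes, by the probe set that stands for each, pair 2 differed in sign from pairs 1 and 3. The knockout difference had 1 sign in pair 2, recorded as female and 20 weeks, and the opposite sign in both pairs recorded as male. Such a pattern was found in 20.6% of all genes tested. For Pdgfrb the log2 difference was -0.17 in the female pair and 1.91 on average in the male pairs, an interaction of -2.08 with a standard error of 0.88. For Des it was 2.19 in the female pair and -1.48 in the male pairs, an interaction of 3.68 with a standard error of 1.32. For Mylk it was -0.39 in the female pair and 0.42 in the male pairs, an interaction of -0.816 with a standard error of 0.81. In the limma interaction fit the adjusted p was 0.9999 for each of these 3 genes. Of 11609 genes in that fit 0 passed and 123 had an unadjusted p under 0.05, among them Pdgfrb and Des. The 3 genes were picked by sign. Without that sign pattern, Myh11 (1.39), Cspg4 (1.23) and Acta2 (1.15) had interactions larger in size than that of Mylk. By pairs 1, 2 and 3 the dimmer, untested Pdgfrb probe set was at 2.21, 0.20 and 1.30 and that of Des at -1.03, -1.04 and 1.03. Neither had this sign pattern. Of the other Mylk probe sets, the bright one had it (0.04, -0.09 and 0.17) and the dim one did not (2.29, -0.58 and -1.68). The female side is a single pair, so recorded sex, age and the batch of islets cannot be told apart.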

How the results depend on the processing

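The count of members passing stayed at 0 in all 16 alternatives run on genes, which tested 4 members under the stricter filter, 5 where probe sets were averaged per gene, 10 with no filter and 8 in the others, and the count of their probe sets at 0 in all 15 run on probe sets, the replicate block included. With the block, and likewise with array weights, 2 of the 8 had an unadjusted p under 0.05. That count was 0 with no intensity trend and where probe sets were averaged per gene. It was also 0 without knockout 3, without control 1, without control 2 and without both arrays numbered 3, and 1 in the other alternatives. The median log2 difference of the members ran from 0.28 without both arrays numbered 2 to 0.66 without knockout 1. Pdgfrb ran from 0.83 to 1.91, Rgs5 from 0.35 to 0.64, Tagln from 0.21 to 1.78, Cspg4 from 0.05 to 0.97 and Myh11 from 0.005 to 1.07, with no change of sign. These ranges do not cover leaving out both arrays numbered 1, which was not run. That pair had the largest Pdgfrb difference, 2.43. When 1 array was left out, Acta2 ran from -0.20 to 0.69, Mylk from -0.27 to 0.52 and Des from -0.95 to 0.20. Without both arrays numbered 2 Acta2 was at -0.14 and Des at -1.48. Without both numbered 3 Des was at 0.37 and Mylk at -0.13. The cause of these changes of sign was not tested beyond the arrays left out. Over all genes the count passing was 2, and it was 6 with the replicate block, 4 with the pseudocount of 50, 4 with every probe set on its own, 1 without both arrays numbered 2, 0 without both numbered 3, and between 0 and 5 when 1 array was left out (0 without knockout 1 or knockout 3, 1 without control 1, 5 without control 2); the cause was not tested. Dim signals limit Cnn1, below the median on all arrays, and Pdgfra, Des, Tagln and Myh11, which exceeded it on 2, 3, 3 and 3 of the 6 arrays.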
